A study of Mus musculus with 36 samples.

Results

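The genes described here are 37 genes of the kinetochore and of the spindle assembly checkpoint, taken as a fixed list of gene symbols and measured in mouse dendritic cells (DCs) that did or did not carry thrombomodulin (TM) on their surface. A gene entered with the transcript cluster of the array whose annotation gives that symbol alone. Each of the 37 had exactly 1 such cluster, and together they are 37 of the 19938 genes measured. In the sorted cells, 36 of the 37 were called higher in TM+ DCs than in TM- DCs and none lower, where 18.6% of all genes were called higher and 18.7% lower. Their median log2 difference was 1.56, while the median over all genes was -0.08. Because the list was drawn up with earlier results of these data known, these counts describe it and are no independent test.

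The kinetochore is the protein assembly on each centromere that holds a chromosome to the spindle. Its inner layer, the constitutive centromere-associated network, sits on nucleosomes that carry the histone variant CENP-A through the whole cell cycle. On entry into mitosis an outer layer is added that grips microtubules, together with a fibrous corona that carries motors, and checkpoint proteins that gather there delay anaphase until every chromosome is attached. The genes were therefore read in classes from textbook roles. Of these, 10 genes are of the constitutive inner kinetochore. A further 18, called mitosis-induced below, were taken to have products made or recruited mainly in late cell cycle and mitosis. The other 9 were put in neither class: *Mis12*, *Dsn1*, *Nsl1*, *Zwilch*, *Zw10*, *Kntc1*, *Bub3*, *Mad1l1* and *Ska2*. Several of these 9 belong to the outer layer, the corona or the checkpoint, so that another split was possible.

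Bone marrow of Balb/c mice aged 10 to 12 weeks was cultured with 100 ng/ml GM-CSF to give DCs, which were harvested on day 6, and the treated cultures received 200 nM soluble TM (sTM) from day 4. A rat antibody to TM and magnetic beads split the cultures into TM+ and TM- fractions of over 93% purity. The sorted arrays hold TM+ DCs with sTM (6 arrays), TM+ DCs untreated (4), TM- DCs with sTM (6) and TM- DCs untreated (4) from experiments 2, 3 and 4, and experiment 2 gave sorted arrays of sTM-treated cultures only. Unsorted DCs with sTM (8 arrays) and untreated (8) came from experiments 1, 2 and 3. All groups thus share the mouse strain and GM-CSF, every fraction was obtained with the same antibody, and the labels call the arrays of 1 group and experiment biological replicates. Whether those came from separate cultures or mice, or from pooled mice, is not stated there, so that p-values measure only the spread between these arrays, which may in part be technical.

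Levels below are log2 of the deposited array intensity, and an array reports 1 mixture of cells, so that fewer cells of a type and less RNA per cell cannot be told apart. *Itgax*, which encodes the DC surface protein CD11c, averaged between 11.86 and 12.22 in the 6 groups, above 98.9% of genes. *Thbd*, which encodes TM itself, lay between 5.76 and 6.92 in TM+ arrays and between 5.65 and 6.50 in TM- arrays, a difference of 0.24 (SE 0.12, limma adjusted p = 0.12), so that the transcript of the sorted protein did not separate the fractions. Arrays of 1 group and experiment correlated at 0.952 or more (median per array, all transcript clusters). TM- sTM array 3-2 stood apart, with a correlation of 0.968 to its replicate, where the other sorted pairs had 0.980 or more. It also had the lowest median correlation with all arrays (0.934). Leaving it out changed the call of none of the 37 genes between the fractions.

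In the fit over all sorted arrays, limma with experiment as a random block, a gene was called at an adjusted p under 0.05, and *Spdl1* was the 1 gene of the 37 not called. The 10 TM+ arrays lay wholly above the 10 TM- arrays for 18 of the 37 genes, which was so for 2.2% of all genes (and the reverse for 0.973%). When TM+ and TM- arrays were set side by side by experiment, treatment and array number, 31 of the 37 genes were higher in TM+ DCs in all 10 pairs (83.8%, against 8.26% of all genes). In order of difference, all 36 neighbours had overlapping 95% intervals, so that the order of neighbours is not resolved. Among so many genes neighbours overlap readily, and this cannot tell a gradient from groups.

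**Figure D1:**
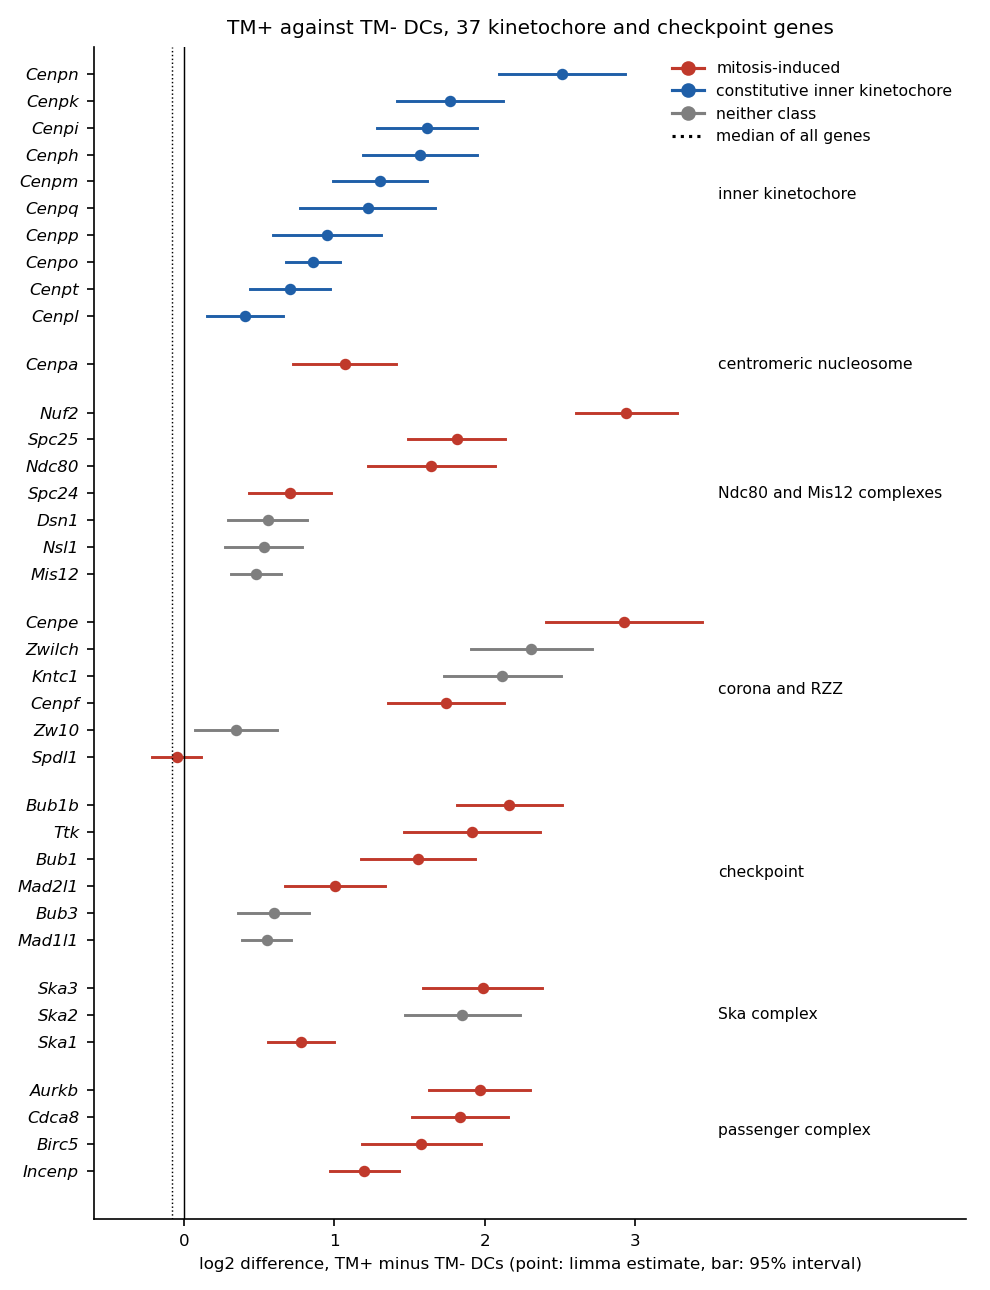
Log2 difference between TM+ and TM- DCs (horizontal axis) for the 37 genes, grouped by role, with the limma estimate as a point and its 95% interval as a bar. Estimates run between -0.05 for *Spdl1* and 2.94 for *Nuf2*, and the dotted line marks the median of all genes, -0.08.

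Of the constitutive inner kinetochore, all 10 genes were higher in TM+ DCs, with a median difference of 1.26. *Cenpn*, whose product binds the CENP-A nucleosome directly, had levels between 7.67 and 10.22 (median 9.44) in TM+ arrays and between 6.06 and 7.13 (median 6.86) in TM- arrays. The fractions did not overlap, and the difference was 2.51 (SE 0.20, adjusted p = 6.19e-09). *Cenpk* and *Cenpi*, which encode parts of one subcomplex of the network with *Cenph* and *Cenpm*, followed. *Cenpk* lay between 6.28 and 8.32 (median 7.05) in TM+ arrays and between 5.18 and 5.64 (median 5.35) in TM- arrays, a difference of 1.77 (SE 0.17). *Cenpi* lay between 6.06 and 7.66 (median 6.40) in TM+ arrays and between 4.92 and 5.55 (median 5.15) in TM- arrays, a difference of 1.62 (SE 0.16). Neither gene overlapped between the fractions.

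*Cenph* (1.57) and *Cenpm* (1.30) of the same subcomplex were also called, as were *Cenpo* (0.85), *Cenpp* (0.95) and *Cenpq* (1.22), which encode a further subcomplex. *Cenpt*, whose product ties centromeric DNA to the outer layer, differed by 0.70. Without experiment 4, *Cenpp* (0.39, adjusted p = 0.0598) and *Cenpt* (0.30, adjusted p = 0.0748) were not called. *Cenpl*, the binding partner of *Cenpn* in the network, changed least in this class. It had levels between 6.42 and 7.83 (median 6.87) in TM+ arrays and between 6.13 and 7.06 (median 6.80) in TM- arrays, and the difference was 0.40 (SE 0.12, adjusted p = 0.0127). The fractions overlapped and 8 of the 10 pairs had the higher value in TM+ DCs. Without experiment 4 the difference of *Cenpl* was 0.18 and was not called (adjusted p = 0.503).

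*Cenpa* encodes the histone variant that marks the centromere. Its level was between 8.39 and 10.32 (median 9.76) in TM+ arrays and between 7.88 and 9.01 (median 8.56) in TM- arrays, a difference of 1.07 (SE 0.16, adjusted p = 2.92e-05). The fractions overlapped because of experiment 2. There the TM+ sTM arrays had 8.39 and 8.54, against 8.86 and 8.88 in the TM- sTM arrays, so that TM+ DCs were lower by 0.40, while in experiments 3 and 4 they were higher by 0.91 to 1.55. Both fractions of experiment 2 lay below the unsorted sTM arrays of that experiment, which had 9.87 and 9.65. No other member was lower by as much between the fractions of any experiment.

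**Figure D2:**
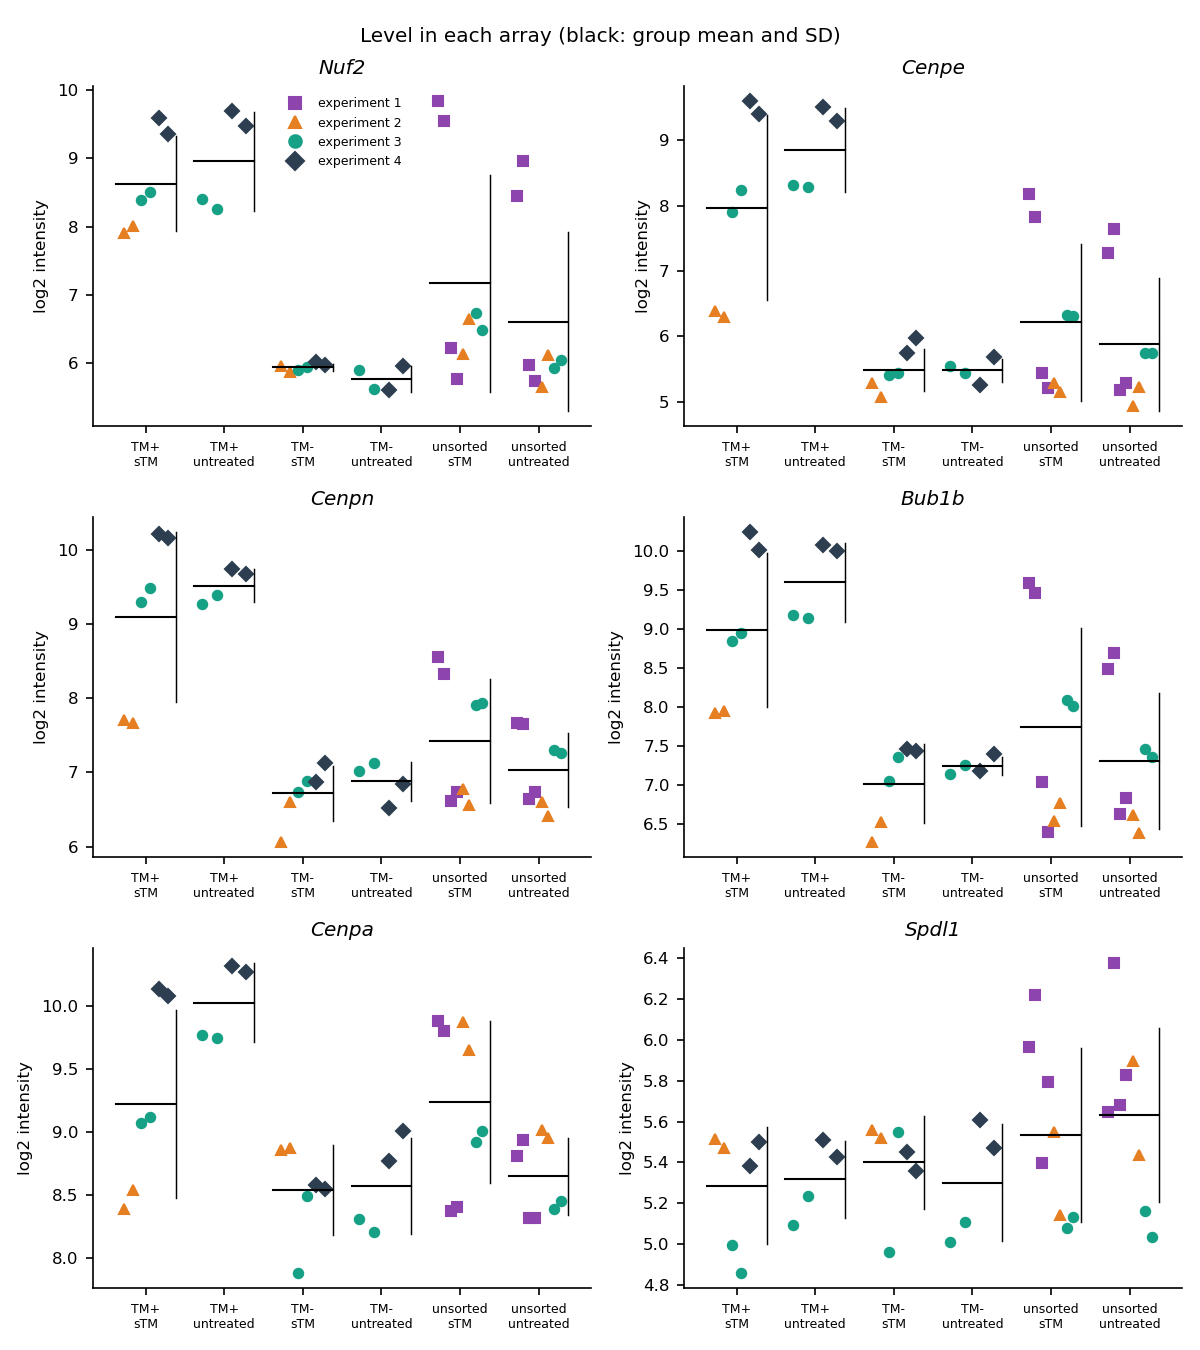
Log2 intensity (vertical axis) of 6 genes in each of the 36 arrays by group, with the symbol giving the experiment and the black lines the group mean and SD. *Nuf2*, *Cenpe*, *Cenpn* and *Bub1b* do not overlap between TM+ and TM- arrays, *Cenpa* overlaps through experiment 2, and *Spdl1* overlaps throughout; 4 of the 8 unsorted arrays of experiment 1 reach the TM+ range for *Nuf2*.

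The Ndc80 complex makes the main contact with microtubules, and the Mis12 complex joins it to the inner kinetochore. *Nuf2* encodes the partner of *Ndc80* in the microtubule-binding head and had the largest difference of all 37 genes. Its level was between 7.90 and 9.69 (median 8.45) in TM+ arrays, and between 5.60 and 6.01 (median 5.92) in TM- arrays. The TM- arrays were close together and every TM+ array lay well above them. The difference was 2.94 (SE 0.16, adjusted p = 4.76e-11), a 7.68-fold change. *Ndc80* lay between 6.26 and 8.83 (median 7.29) in TM+ arrays and between 5.58 and 6.26 (median 5.78) in TM- arrays, a difference of 1.64 (SE 0.20) and the lowest TM+ array lay only just above the highest TM- array. *Spc25*, part of the other end of the complex, lay between 7.27 and 9.002 (median 7.65) in TM+ arrays and between 5.59 and 6.53 (median 6.32) in TM- arrays, a difference of 1.81 (SE 0.16).

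*Spc24*, the partner of *Spc25*, differed by 0.70 (SE 0.13, adjusted p = 0.000214), below the other 3 subunits, and its fractions overlapped. The genes of the Mis12 complex, *Dsn1* (0.56), *Nsl1* (0.53) and *Mis12* (0.48), were all called, with smaller differences. *Mis12* had levels between 7.71 and 8.10 (median 7.96) in TM+ arrays and between 7.01 and 7.84 (median 7.56) in TM- arrays, and the difference was 0.48 (SE 0.08, adjusted p = 6.56e-05). Its fractions overlapped, yet TM+ DCs had the higher value in 10 of 10 pairs. *Spc24*, *Dsn1*, *Nsl1* and *Mis12* all kept a difference above 0 but were no longer called without experiment 4.

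In the fibrous corona, *Cenpe* encodes a kinesin motor that moves chromosomes toward the middle of the spindle. Its level was between 6.30 and 9.59 (median 8.30) in TM+ arrays and between 5.07 and 5.98 (median 5.44) in TM- arrays, with no overlap. The difference was 2.93 (SE 0.25, adjusted p = 1.33e-08). Its interval overlapped that of *Nuf2*, and its spread over the TM+ arrays was wider. *Cenpf*, a large coiled-coil protein of the corona, differed by 1.74. The corona also holds a complex of the products of *Kntc1*, *Zwilch* and *Zw10*, which brings in the dynein motor and checkpoint proteins. *Zwilch* lay between 6.49 and 8.94 (median 7.85) in TM+ arrays and between 4.89 and 6.09 (median 5.62) in TM- arrays, a difference of 2.31 (SE 0.19). *Kntc1* lay between 6.67 and 8.79 (median 7.25) in TM+ arrays and between 5.13 and 5.78 (median 5.39) in TM- arrays, a difference of 2.12 (SE 0.19). These 2 subunits of the complex were among the 6 largest differences of the list and did not overlap between the fractions.

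*Zw10*, the third subunit, which also acts in vesicle transport outside mitosis, stood at the other end. It had levels between 7.35 and 8.18 (median 7.76) in TM+ arrays and between 6.96 and 8.04 (median 7.44) in TM- arrays, and the difference was 0.35 (SE 0.13, adjusted p = 0.0417). It was higher in TM+ DCs in 6 of 10 pairs. Within experiment 4 it was higher by 0.68 with sTM and by 1.05 untreated, but without experiment 4 the fitted difference was -0.06 (adjusted p = 0.888), and the call was lost in 19 of the 33 alternatives, among them quantile normalization (adjusted p = 0.117) and leaving out experiment 2 (adjusted p = 0.0724). *Spdl1* encodes Spindly, the adaptor that loads dynein on kinetochores. Its level was between 4.86 and 5.51 (median 5.41) in TM+ arrays and between 4.96 and 5.61 (median 5.46) in TM- arrays, with a difference of -0.05 (95% interval -0.21 to 0.11, adjusted p = 0.627). Its mean level over the 36 arrays exceeded that of 19.4% of genes only, and under quantile normalization the sign turned (0.05, adjusted p = 0.583).

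Of the checkpoint genes, all 6 were called higher. *Bub1b*, whose product is part of the complex that holds back anaphase, lay between 7.91 and 10.23 (median 9.15) in TM+ arrays and between 6.27 and 7.46 (median 7.21) in TM- arrays, a difference of 2.16 (SE 0.17, adjusted p = 3.94e-09). *Ttk*, the kinase that starts the checkpoint signal, lay between 6.28 and 8.69 (median 7.14) in TM+ arrays and between 5.25 and 6.10 (median 5.57) in TM- arrays, a difference of 1.91 (SE 0.22). Neither overlapped between the fractions. *Bub1*, a kinase that recruits other checkpoint proteins, lay between 8.52 and 10.61 (median 10.22) in TM+ arrays and between 7.02 and 9.10 (median 8.64) in TM- arrays, and its fractions overlapped although every pair was higher in TM+ DCs, by 1.10 to 2.01. The fitted difference of *Bub1* was 1.56 (SE 0.18).

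*Mad2l1*, which encodes the protein that binds and blocks the activator of anaphase, differed by 1.01, and *Bub3*, the partner of both Bub kinases, by 0.60. *Mad1l1*, whose product anchors *Mad2l1* protein at kinetochores, changed least of the checkpoint genes. It had levels between 8.13 and 9.11 (median 8.42) in TM+ arrays and between 7.77 and 8.14 (median 7.97) in TM- arrays, and the difference was 0.55 (SE 0.08, adjusted p = 1.18e-05). The fractions met only at the lowest TM+ array, and TM+ DCs had the higher value in 10 of 10 pairs. *Bub3* was not called without experiment 4 (0.26, adjusted p = 0.194).

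The Ska complex steadies the grip on shortening microtubules. *Ska3* lay between 6.49 and 8.80 (median 7.81) in TM+ arrays and between 5.72 and 6.18 (median 5.95) in TM- arrays, a difference of 1.99 (SE 0.19). *Ska2* lay between 7.56 and 9.75 (median 8.97) in TM+ arrays and between 6.56 and 8.07 (median 7.24) in TM- arrays, a difference of 1.85 (SE 0.18). *Ska1* lay between 6.14 and 7.27 (median 6.44) in TM+ arrays and between 5.54 and 6.31 (median 5.86) in TM- arrays, a difference of 0.78 (SE 0.11). All 3 were called, and only *Ska3* had no overlap of the fractions.

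The chromosomal passenger complex corrects wrong attachments through the kinase encoded by *Aurkb*. *Aurkb* had levels between 8.72 and 10.71 (median 10.15) in TM+ arrays and between 7.36 and 9.004 (median 8.17) in TM- arrays, a difference of 1.96 (SE 0.16, adjusted p = 7.86e-09). *Cdca8*, which encodes borealin, lay between 8.05 and 9.52 (median 8.40) in TM+ arrays and between 6.71 and 7.13 (median 6.88) in TM- arrays, a difference of 1.83 (SE 0.15). *Birc5*, which encodes survivin, lay between 6.55 and 8.92 (median 7.24) in TM+ arrays and between 5.67 and 6.54 (median 6.19) in TM- arrays, a difference of 1.58 (SE 0.19). *Incenp*, the scaffold of the complex, had the smallest difference of the 4, 1.20 (SE 0.11), with levels between 8.38 and 9.64 (median 8.76) in TM+ arrays and between 7.61 and 8.06 (median 7.74) in TM- arrays. *Cdca8*, *Birc5* and *Incenp* did not overlap between the fractions.

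Set against each other, the mitosis-induced genes had a median difference of 1.69 (17 of 18 called higher), the constitutive inner kinetochore genes 1.26 (10 of 10) and the genes of neither class 0.56 (9 of 9), so that the first class exceeded the second by 0.43. This gap was above 0 in each of the 10 pairs of arrays, with a mean of 0.38 ± 0.23 (SD over pairs) and a range of 0.12 to 0.84. The classes overlapped widely. The constitutive genes ran between 0.40 and 2.51, the mitosis-induced genes between -0.05 and 2.94, and the genes of neither class between 0.35 and 2.31. No test was made between classes. The gap was 0.31 with means in place of medians, 0.37 without experiment 3, and 0.74 with the genes of neither class counted as constitutive. The opposite grouping, with those genes counted as mitosis-induced, was not computed. Their median of 0.56 lay below that of both other classes, so that the size of the gap depends on where they are put.

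**Figure D3:**
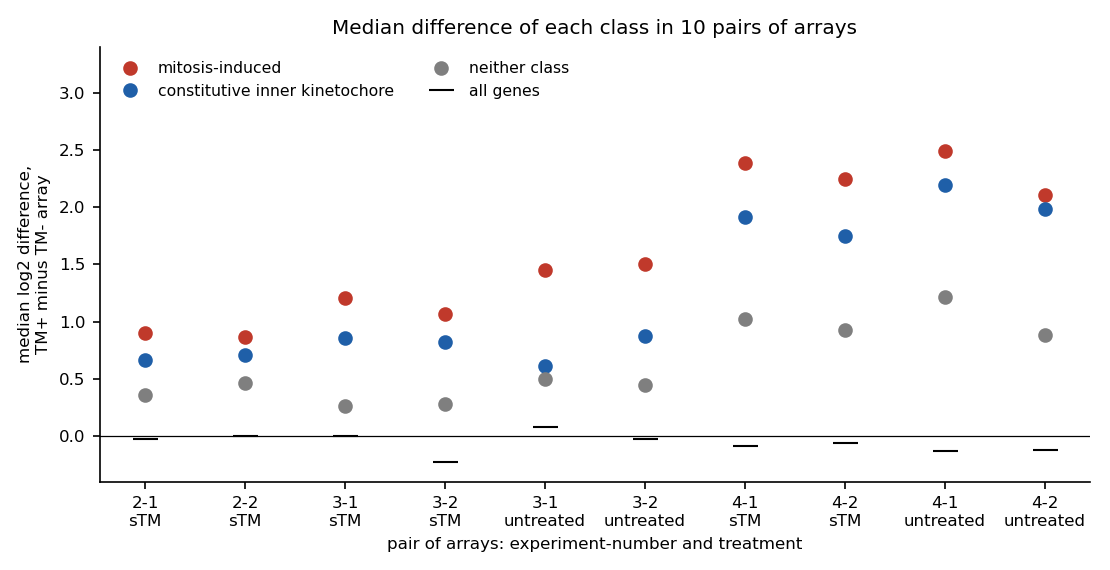
Median log2 difference between the TM+ and the TM- array (vertical axis) over the genes of each class, for 10 pairs of arrays formed by experiment, array number and treatment, with the median of all genes as a dash. Mitosis-induced genes lie above constitutive inner kinetochore genes in each pair, by 0.12 to 0.84, and the pairs of experiment 4 lie highest.

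The size of the difference varied between experiments. The median over the 37 genes was 0.76 in experiment 2 (sTM), 0.93 (sTM) and 1.17 (untreated) in experiment 3, and 1.84 (sTM) and 2.08 (untreated) in experiment 4, while the median over all genes stayed between -0.14 and 0.03. The levels varied more on the TM+ side. The median level of the 37 genes was between 7.25 and 7.32 in TM+ arrays of experiment 2, between 7.57 and 7.88 in experiment 3 and between 8.48 and 8.70 in experiment 4, whereas in TM- arrays it was between 6.27 and 6.52, between 6.31 and 6.75 and between 6.53 and 6.88. *Top2a*, a gene of the dividing cell outside the list, likewise lay between 9.05 and 9.22, between 9.30 and 9.77 and between 11.01 and 11.13 in TM+ arrays of experiments 2, 3 and 4. *Mki67*, a further gene of dividing cells, was higher in TM+ DCs by 0.92 (SE 0.23, adjusted p = 0.0037). Differences between experiments were not tested. Without experiment 4, 27 of the 37 genes were called higher in TM+ DCs, with a median of 0.94, and 7.44% of all genes were.

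Within the untreated cultures alone, 34 of the 37 genes were called higher in TM+ DCs and none lower (13.2% of all genes higher, 7.93% lower), with a median of 1.63, and the 4 TM+ arrays lay above the 4 TM- arrays for 34 genes and below them for none (12.7% and 10.1% of all genes). Within the sTM-treated cultures, 34 were called higher and none lower (11.6% of all genes higher, 12.4% lower), with a median of 1.28, and the 6 TM+ arrays lay above the 6 TM- arrays for 19 genes and below them for none (3.28% and 2.09% of all genes). *Zw10* and *Spdl1* were not called in either, *Cenpl* was not called in untreated cultures (0.39, adjusted p = 0.169) and *Nsl1* not in sTM-treated ones (0.30, adjusted p = 0.159).

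Sequence upstream of the members was read because these genes moved together. Promoters of 31 of the 37 genes were in the table of RefSeq sequences (build GRCm38.p6). Many genes of the late cell cycle are known to carry a CCAAT box and a cell cycle homology region (CHR), and these were searched in the 250 bases before each start, on both strands: CCAAT for the box, and TTTGAA or TTTAAA for the CHR. The letters CCAAT were found in 9 of 14 mitosis-induced genes (64.3%), 5 of 10 constitutive inner kinetochore genes (50.0%) and 4 of 7 genes of neither class (57.1%), against 37.5% of 27025 genes with a promoter entry. The CHR letters were found in 4 of 14 (28.6%), 3 of 10 (30.0%) and 3 of 7 (42.9%), against 28.1% of all genes. For the sites of E2F factors, TTCCCGC or TTGGCGC were found in 1 of 14 (7.1%), 3 of 10 (30.0%) and 3 of 7 (42.9%), against 6.4% of all genes. A match gives letters in a window and no binding, and motifs were counted separately, also where their matches share bases.

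Printed here are the 150 bases before the start for the 2 genes with the largest differences (*Nuf2*, *Cenpe*), for 2 mitosis-induced genes with several CCAAT boxes (*Bub1*, *Cdca8*) and for *Spdl1*, which was not called. The windows are chr1:169531465-169531614 (minus strand, *Nuf2*), chr3:135212413-135212562 (plus strand, *Cenpe*), chr2:127831860-127832009 (minus strand, *Bub1*), chr4:124936918-124937067 (minus strand, *Cdca8*) and chr11:34833642-34833791 (minus strand, *Spdl1*). Sequences run 5′ to 3′ on the gene's strand, and capitals mark CCAAT, or ATTGG where the box lies on the other strand.
Nuf2: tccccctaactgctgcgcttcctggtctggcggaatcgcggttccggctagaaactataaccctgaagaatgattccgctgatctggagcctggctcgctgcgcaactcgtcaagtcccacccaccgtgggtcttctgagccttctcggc
Cenpe: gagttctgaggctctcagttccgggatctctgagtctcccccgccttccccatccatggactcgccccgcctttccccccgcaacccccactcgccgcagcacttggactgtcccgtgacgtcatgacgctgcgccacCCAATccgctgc
Bub1: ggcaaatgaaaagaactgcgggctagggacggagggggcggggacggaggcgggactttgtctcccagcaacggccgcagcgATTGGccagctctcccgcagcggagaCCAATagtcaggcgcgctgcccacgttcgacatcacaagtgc
Cdca8: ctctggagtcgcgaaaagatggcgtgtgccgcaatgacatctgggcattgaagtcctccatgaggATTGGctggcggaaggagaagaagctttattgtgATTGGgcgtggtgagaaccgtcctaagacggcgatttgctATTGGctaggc
Spdl1: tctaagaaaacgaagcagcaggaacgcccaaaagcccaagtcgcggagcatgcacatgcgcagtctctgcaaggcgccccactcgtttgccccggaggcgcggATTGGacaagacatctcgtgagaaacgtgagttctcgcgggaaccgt
*Nuf2*, with the largest difference, held neither CCAAT nor CHR letters in its window, while *Spdl1*, with a difference near 0, held ATTGG at positions -47 to -43 counted back from the start. *Spdl1* also held E2F letters, GCGGGAA on the other strand at -11 to -5, which are not in capitals. It was the only mitosis-induced gene with E2F letters. *Cdca8* held the box 3 times and *Bub1* 2 times, and *Cenpe* held it at positions -12 to -8.

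Genes that work beside the 37 were read from lists of textbook members. Beside these counts, 18.6% of all genes were called higher in TM+ DCs and 18.7% lower. Of 26 other kinetochore and centromere genes, 15 were higher in TM+ DCs and 2 lower, with a median of 0.65. *Plk1*, a mitotic kinase that acts at kinetochores, was higher by 2.85 (SE 0.20), *Knl1*, the scaffold to which the Bub proteins bind, by 2.50 (SE 0.22) and *Kif2c*, which takes apart microtubule ends, by 2.46 (SE 0.17). The 2 lower genes were *Ndel1* (-0.32), a dynein regulator, and *Zwint* (-0.25), named here after their values were seen. Of 25 genes of the anaphase-promoting complex and of anaphase onset, the step that the checkpoint controls, 10 were higher and 1 lower, *Anapc7* (-0.58, likewise named after its value was seen), with a median of 0.17. There, *Fbxo5*, an inhibitor of the complex, was higher by 2.10 (SE 0.21), *Ube2c*, its ubiquitin-conjugating enzyme, by 2.09 (SE 0.18) and *Cdc20*, the activator that the checkpoint blocks, by 1.69 (SE 0.15). Of 26 genes of DNA replication, 25 were higher and none lower, with a median of 1.48, led by *Rrm2* (2.61), *Pole* (2.40) and *Mcm6* (2.14).

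Marker genes of cell types were read in the same way, again beside 18.6% of all genes called higher in TM+ DCs and 18.7% lower. Of 17 conventional DC markers, 10 were lower and 6 higher in TM+ DCs, with *Cd83* (-2.19), *Cd40* (-1.82) and *Ccr7* (-1.41) the largest, and their summed intensity was 27654 to 38932 in TM+ arrays and 28171 to 48975 in TM- arrays. Of 11 monocyte and macrophage markers, 6 were higher and 2 lower, led by *Ccr2* (4.04), *Mrc1* (2.76) and *Cd14* (-0.87), with sums of 27688 to 39035 in TM+ arrays and 20472 to 31381 in TM- arrays. Of 19 markers of granulocytes and their precursors, 12 were higher and 3 lower, led by *Cxcr2* (2.48), *Ngp* (2.17) and *S100a9* (2.16). The 3 lower, likewise named after their values were seen, were *Mmp9*, *Lcn2* and *Csf3r*. *Mmp9* averaged 11.57 (sTM) and 9.36 (untreated) in TM+ DCs, against 12.16 and 12.45 in TM- DCs. The sums over the 19 were 24101 to 36599 in TM+ arrays and 22338 to 34548 in TM- arrays. Of 12 mast cell and basophil markers, none was higher and 2 were lower, *Hdc* (-2.51) and *Kit* (-0.77), near the share of all genes called lower. The sums over the 12 were 1823 to 3008 in TM+ arrays and 1962 to 6033 in TM- arrays. None of 11 lymphocyte markers was called, with sums of 500 to 692 in TM+ arrays and 572 to 784 in TM- arrays. None of 4 erythroid markers was called either, with sums of 227 to 312 in TM+ arrays and 236 to 312 in TM- arrays. The part of these cell types in the differences of the kinetochore genes was not tested.

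Treatment with sTM was tested within each fraction. In TM+ DCs, none of the 37 genes was called by limma (0.853% of all genes were), and 3 had an unadjusted p under 0.05, all lower with sTM, which is 8.11% of the list where 10.2% of all genes had such a p. In TM- DCs none was called (0% of all genes), and 1 had an unadjusted p under 0.05 (2.7% of the list, 3.62% of all genes). The median over the 37 genes was -0.15 in TM+ DCs and 0.20 in TM- DCs. Experiment 2 has sorted sTM arrays but no sorted untreated ones, and with experiments 3 and 4 alone the medians were 0.005 in TM+ DCs and 0.09 in TM- DCs. Without experiment 3 they were -0.41 and 0.38. With array weights the median in TM+ DCs was 0.17 and *Cenpk* was called higher, as were 2.52% of all genes in that fit. The 95% intervals of 34 of the 37 genes lay within 1 log2 unit of 0 in TM+ DCs, and likewise of 34 in TM- DCs.

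*Cenpa* had the smallest p in TM+ DCs. With sTM its levels were 8.39, 8.54, 9.07, 9.12, 10.14 and 10.08, the first 2 from experiment 2, the next 2 from experiment 3 and the last 2 from experiment 4, against 9.77 and 9.75 (experiment 3) and 10.32 and 10.27 (experiment 4) in untreated TM+ arrays. The fitted difference was -0.73 (SE 0.24, adjusted p = 0.195). Within experiments it was -0.66 in experiment 3 and -0.19 in experiment 4. In unsorted DCs the sign was the other way, with *Cenpa* higher with sTM by 0.52, 0.78 and 0.55 in experiments 1, 2 and 3 and by 0.59 in the fit (SE 0.20, adjusted p = 0.932), which again did not pass. In TM- DCs the fitted difference was 0.04 (95% interval -0.46 to 0.55), while it was -0.07 within experiment 3 and -0.33 within experiment 4.

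*Mad1l1* came next in TM+ DCs, between 8.13 and 8.61 (median 8.32) with sTM, against 8.44, 8.37, 9.11 and 8.87 untreated. The difference was -0.34 (SE 0.11, adjusted p = 0.214), and it was -0.08 within experiment 3 and -0.43 within experiment 4. In TM- DCs the smallest p-values were those of *Mis12* and *Ska2*. *Mis12* lay between 7.32 and 7.84 (median 7.62) with sTM, against 7.62, 7.53, 7.01 and 7.02 untreated, a difference of 0.28 (SE 0.12, adjusted p = 0.998). *Ska2* lay between 6.56 and 8.07 (median 7.34) with sTM, against 7.47, 7.22, 6.58 and 6.74 untreated, a difference of 0.55 (SE 0.27, adjusted p = 0.998). Both genes were above 0 within experiments 3 and 4, and the groups overlapped.

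For the interaction, the difference between the sTM effects in TM+ and TM- DCs, none of the 37 genes was called (0.01% of all genes). Its estimate was below 0 for 36 of the 37, with a median of -0.31 against -0.04 over all genes, and *Cenpl* was the exception. Intervals of the kind given above for each fraction lay within 1 log2 unit of 0 for only 21 of the 37 genes. Their lowest bound was -1.92, so that the interaction was bounded less tightly than the sTM effect within each fraction. The smallest p-values were those of *Cenpa* (-0.77, SE 0.33, adjusted p = 0.75) and *Aurkb* (-0.71, SE 0.32, adjusted p = 0.792). *Aurkb* had lower values in the TM+ sTM arrays of experiment 2 (8.77 and 8.72) than in any other TM+ array (10.02 to 10.71), and without experiment 2 the median interaction over the 37 genes was -0.14. Without experiment 3 it was -0.65, and with array weights it was 0.00.

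**Figure D4:**
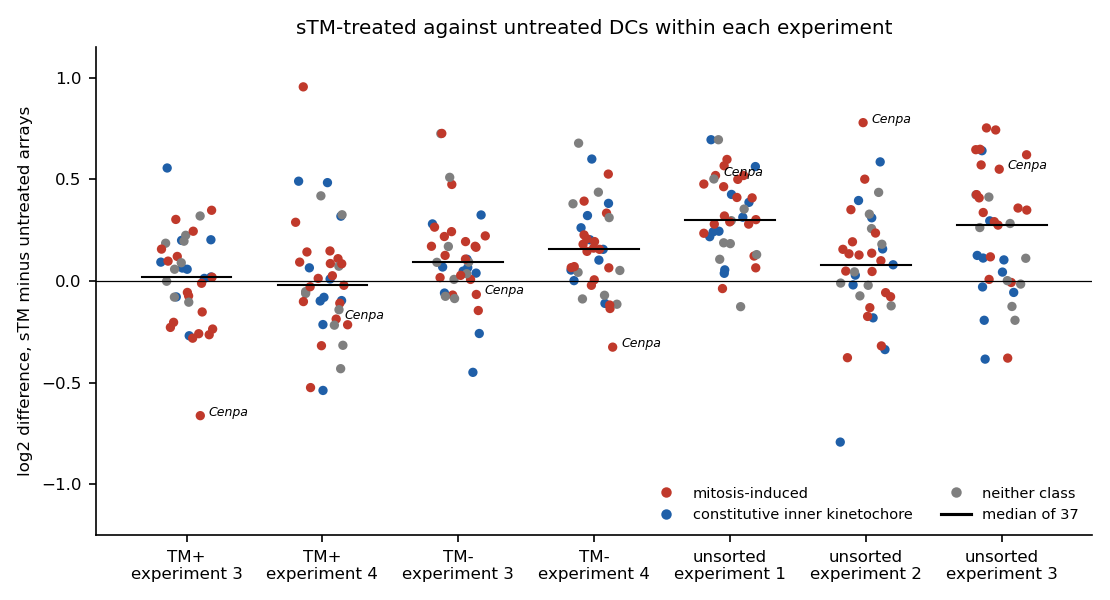
Log2 difference between sTM-treated and untreated arrays (vertical axis) for the 37 genes within each experiment and fraction, coloured by class, with the median as a black line and *Cenpa* labelled. The medians run between -0.02 (TM+, experiment 4) and 0.30 (unsorted, experiment 1), and *Cenpa* is below 0 in both fractions and above 0 in the 3 unsorted experiments.

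In unsorted DCs, none of the 37 genes was called between sTM-treated and untreated cultures (0% of all genes), and *Cenpa* was the 1 gene with an unadjusted p under 0.05 (2.7% of the list, 4.71% of all genes). The estimates were above 0 for 34 of the 37, with a median of 0.25 against 0.01 over all genes, and the median was 0.30, 0.08 and 0.27 within experiments 1, 2 and 3. Intervals of the kind given above for each fraction lay within 1 log2 unit of 0 for 26 of the 37 genes. Their highest bound was 1.75, so that the sTM effect was bounded less tightly here than within each fraction. After *Cenpa*, the smallest p was that of *Nsl1*, at 6.27 to 7.07 (median 6.72) with sTM and 6.28 to 6.80 (median 6.56) untreated, a difference of 0.20 (SE 0.11, limma adjusted p = 0.9995).

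The unsorted arrays of experiment 1 fell into separate levels. Arrays 1-1 and 1-2 had a median over the 37 genes of 8.22 and 7.91 with sTM and of 7.28 and 7.64 untreated, while arrays 1-3 and 1-4 had 6.50 and 6.62 with sTM and 6.55 and 6.59 untreated. The first 4 lay in the range of the TM+ arrays (7.25 to 8.70), and the other 12 unsorted arrays (6.28 to 6.73) in that of the TM- arrays (6.27 to 6.88). *Nuf2* showed the same split, with 9.84 and 9.55 (sTM) and 8.45 and 8.96 (untreated) in arrays 1-1 and 1-2, against 6.21 and 5.77 (sTM) and 5.97 and 5.73 (untreated) in arrays 1-3 and 1-4. *Top2a* was between 9.52 and 10.54 in these 4 arrays and between 6.00 and 8.11 in the other 12. *Mki67* showed no such gap within experiment 1. With sTM it was 10.495 and 10.058 in arrays 1-1 and 1-2, against 10.007 and 10.152 in arrays 1-3 and 1-4. Untreated, it was 10.289 and 10.205 in arrays 1-1 and 1-2, against 9.953 and 9.941 in arrays 1-3 and 1-4. The labels give these arrays no difference but their number. In the median over the 37 genes, arrays 1-1 and 1-2 were higher with sTM than untreated, while arrays 1-3 and 1-4 overlapped between treatments. The fit for sTM in unsorted DCs had no term for this split.

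**Figure D5:**
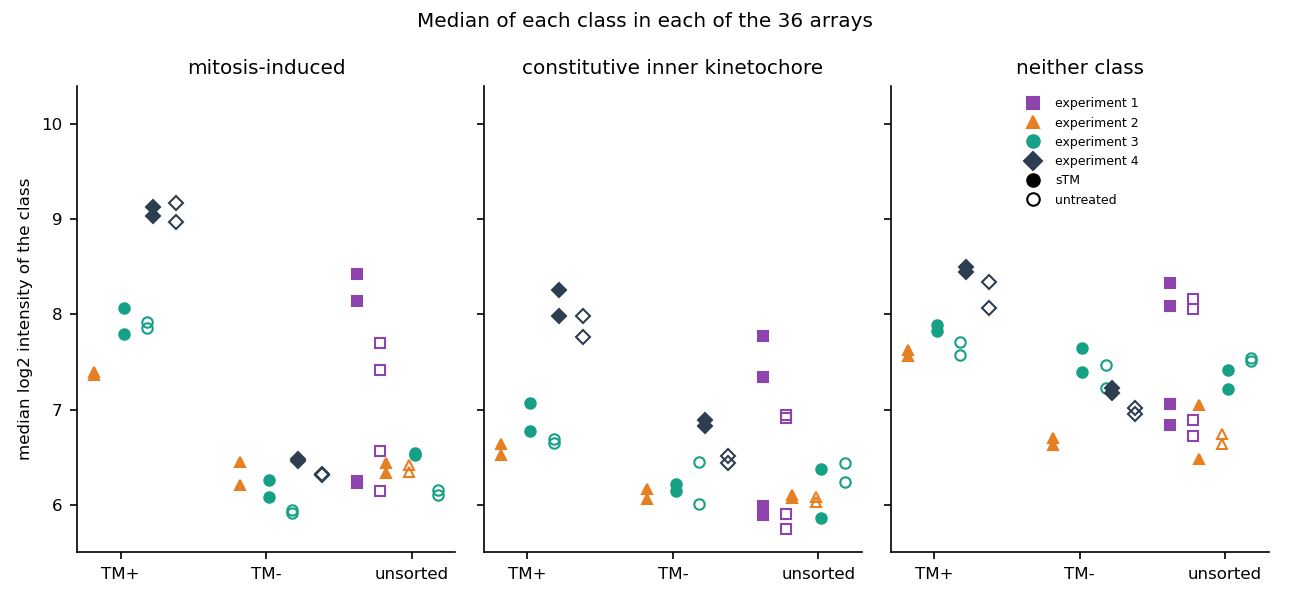
Median log2 intensity of each class (vertical axis) in each of the 36 arrays by fraction, with the symbol giving the experiment and filled symbols the sTM-treated cultures. TM+ arrays of experiment 4 lie highest for the mitosis-induced genes, between 8.98 and 9.17, and 4 unsorted arrays of experiment 1, between 7.41 and 8.43, lie apart from the other 12, between 6.11 and 6.56.

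Against unsorted DCs, with all 36 arrays in the fit, 32 of the 37 genes were called higher in TM+ DCs and none lower (9.73% of all genes higher, 5.21% lower), with a median of 1.09. *Cenpe* (2.23), *Nuf2* (2.17) and *Cenpn* (1.82) had the largest differences, and *Cenpa*, *Mis12*, *Bub3*, *Zw10* and *Spdl1* were not called. No gene of the list had TM+ and unsorted arrays without overlap (0.171% of all genes with TM+ arrays above, 0.0401% with TM+ arrays below). Without experiment 4 the count was 17 (2.57% of all genes) and the median 0.79, without experiment 1 they were 33 (12% of all genes) and 1.13, and with experiments 2 and 3 alone 28 (6.15% of all genes) and 0.85. By class, 10 of 10 constitutive inner kinetochore genes, 16 of 18 mitosis-induced genes and 6 of 9 genes of neither class were higher.

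The comparison of TM- DCs with unsorted DCs used the same unsorted arrays. None of the 37 genes was called lower or higher in TM- DCs by limma (0.0301% of all genes lower, 0.166% higher), 8 had an unadjusted p under 0.05 (21.6% of the list, 10.1% of all genes), all below 0 (3.07% of all genes), and the median difference was -0.30. Within experiments that hold both, the median was -0.01 (experiment 2, sTM), -0.19 (experiment 3, sTM) and -0.09 (experiment 3, untreated), while TM+ DCs exceeded unsorted DCs by 0.76, 0.81 and 1.05. With array weights, which give less to arrays that stray, 10 of the 37 were called lower in TM- DCs, and 3.48% of all genes were in that fit.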

How the data were processed

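RNA of the 36 DC samples was hybridised to Mouse Gene 1.0 ST arrays, and the authors deposited linear intensity values, made with RMA in the Affymetrix APT software. RMA corrects background, makes arrays share 1 distribution and summarises probes, which narrows differences of dim genes. The sources used here do not give whether all arrays were normalised together. The log2 of the values was taken. Of 35556 transcript clusters, 21789 had 1 symbol, 1621 several and 12146 none, and for each of 19938 genes the brightest cluster was used. Arrays have no read depth, so that their number limits the precision. limma 3.58.1 in R 4.3.3 was fitted over all genes with experiment as a random block (duplicateCorrelation, statmod 1.5.0), with Benjamini-Hochberg adjustment and a threshold of 0.05. The fits were also run on simulated data, in which each changed gene differed by the same amount in every experiment. That run does not bear on differences that vary between experiments, as those here did. Named genes were, per role, the 3 with the largest difference between fractions and the smallest, the 2 with the smallest p in each sTM comparison, and the 3 largest called of each other list. Members and lists were chosen with earlier results of these data known. Alternatives were other normalizations, filters, block terms and array weights, and leaving out each array or experiment.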

Additional observations from a re-analysis of the deposited data

Results flagged for a closer look

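Of 222 groups of arrays (37 genes in 6 groups), 4 held an array far from the others by Dixon's test, and chance alone flags about 1 in 20 groups. In untreated unsorted DCs, *Cenpm* was lowest in array 2-2 at 6.42, where the nearest array had 7.17. In untreated TM- DCs, *Cenpt* was lowest in array 4-1 at 7.22, where the nearest had 7.63. In sTM-treated TM- DCs, *Spc24* was highest in array 2-1 at 7.23, where the nearest had 6.64, and *Spdl1* was lowest in array 3-1 at 4.96, where the nearest had 5.36.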

How the results depend on the processing

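The count of genes higher in TM+ than in TM- DCs was 35 to 36 when single arrays were left out, 33 to 36 in untreated and 28 to 34 in sTM-treated cultures. The counts for sTM and for the interaction stayed at 0 when single arrays were left out. TM+ against unsorted DCs gave 27 to 33, and TM- against unsorted DCs 0. The gap between classes was 0.385 to 0.479 when single arrays were left out. It was 0.371 without experiment 3, 0.308 with means in place of medians, and 0.743 with genes of neither class counted as constitutive. The gap with those genes counted as mitosis-induced was not computed. With array weights, 1 gene (*Cenpk*) was higher with sTM in TM+ DCs, as were 2.52% of all genes. In TM- DCs 2 (*Mis12* and *Ska2*) were higher with sTM, as were 2.22% of all genes. With the same weights 10 were lower in TM- than in unsorted DCs (3.48% of all genes). Without experiment 1 that last count was 1 (0.777% of all genes), and without experiment 4 TM+ DCs exceeded unsorted DCs for 17 genes (2.57% of all genes). *Zw10* turned to -0.0603 without experiment 4 (adjusted p = 0.888) and *Spdl1* to 0.0524 under quantile normalization. The causes were not tested. With the replicate number as a block, 35 genes were higher in TM+ than in TM- DCs (*Zw10* lost, adjusted p = 0.0711) and 28 higher than in unsorted DCs. Same-numbered TM+ and TM- arrays correlated in their deviations at -0.249 to 0.306, which does not pair the fractions. Same-numbered sTM and untreated arrays correlated at 0.564 to 0.746 in unsorted experiment 1, at 0.026 and 0.133 in unsorted experiments 2 and 3, at 0.403 and 0.35 in TM+ DCs and at 0.087 and 0.089 in TM- DCs, so that some but not all share more than a number. With the block the count for sTM stayed at 0 in each. For the fits with this block or with single arrays left out, the share of all genes was not counted. The median of all genes between fractions was -0.20 with arrays centred on the 75th percentile, where that of the 37 genes was 1.44.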
